A study of Mus musculus with 8 samples.

Results

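Osteoclast-like cells were sought among single cells of mouse MC38 tumors as cells rich in the transcripts of Ctsk, Acp5 and Mmp9. A cell was counted as osteoclast-like when it held at least 2 unique molecular identifiers (UMIs, each marking 1 captured transcript) of Ctsk, at least 2 of Acp5 and at least 1 of Mmp9, no UMI of Cd3d, Cd3e or Cd3g, and at most 2 of the MC38 genes Mtap and Rhox5 together. The rule found 114 of 9886 cells that passed the limits on quality. Because Ctsk, Acp5 and Mmp9 chose the cells, their levels are given below as a description only.

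Osteoclasts are large cells of the myeloid lineage that fuse from precursors and dissolve bone. Macrophage colony-stimulating factor keeps the precursors alive through its receptor CSF1R, and RANK ligand acts through RANK (Tnfrsf11a) to raise NFATC1, the transcription factor that governs the osteoclast program. The mature cell seals itself to bone through the integrin chains alpha v and beta 3, pumps protons through a vacuolar ATPase, and secretes cathepsin K (Ctsk), tartrate-resistant acid phosphatase (Acp5) and the gelatinase Mmp9.

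The tumors had grown under the skin of female C57BL/6J mice, 8 weeks old in the study's methods, from MC38 cells, a colon carcinoma line of that strain. Each mouse received saline (3 tumors), free R848 (3 tumors) or medium R848-BPDs (2 tumors), and all tumors were dissociated 24 hours later. R848 (resiquimod) stimulates Toll-like receptors 7 and 8, and medium R848-BPDs are bottlebrush polymer prodrugs that carry it on a linker of intermediate release rate. From each mouse, CD45+ cells in excess and CD45- cells went onto Seq-Well arrays, in which a barcoded bead tags the transcripts of the cell that shares its well. No label gives the sequencing run of a tumor, so a run and a tumor cannot be told apart. The tumors held 5867590 to 12422614 UMIs, and their kept cells had medians of 3247 to 6928 UMIs. Of the cell barcodes, 23 sequences occurred in more than 1 tumor, and none of the 59 kept cells that carried them was osteoclast-like.

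The cells were compared with C1q-positive macrophages, the macrophages most readily named in these files. These had at least 2 UMIs of C1qa, 2 of C1qb, 1 of C1qc and 1 of Csf1r, with the same limits on Cd3 and MC38 genes. There were 3205 of them over all 8 tumors, with a median of 5848 UMIs per cell, and 2147 lay in the 6 tumors with any osteoclast-like cell. Shares of macrophages with a UMI are over all 8 tumors unless a tumor is named. Osteoclast-like cells were deeper, with a median of 9034.5 UMIs and a range of 1587 to 28999. Levels are therefore given as CPM, the UMIs of a gene scaled to a common total in every sum of cells, and shares of cells with a UMI are given also after each cell was thinned to 2000 UMIs.

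Osteoclast-like cells were very unevenly spread over the tumors. Saline replicate 3 held 58 of 1171 nonmalignant cells (4.95%, exact binomial 95% interval 3.78 to 6.36) and free R848 replicate 2 held 39 of 1076 (3.62%, 2.59 to 4.92). These 2 tumors gave 97 of the 114 cells (85.1%). Free R848 replicate 1 held 7 of 755 (0.927%), medium R848-BPD replicate 2 held 5 of 771 (0.649%), medium R848-BPD replicate 1 held 3 of 1167 (0.257%), and saline replicate 1 held 2 of 1166 (0.172%). None was found in saline replicate 2 (0 of 1135 cells, an upper limit of 0.264%) or in free R848 replicate 3 (0 of 759 cells, an upper limit of 0.395%). The upper limits are what a count of 0 allows, taken as 3 counts, and intervals and limits cover counting error only. Saline replicate 3 had the most osteoclast-like cells and the lowest median depth of the 8 tumors, 3247 UMIs per kept cell.

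**Figure D1:**
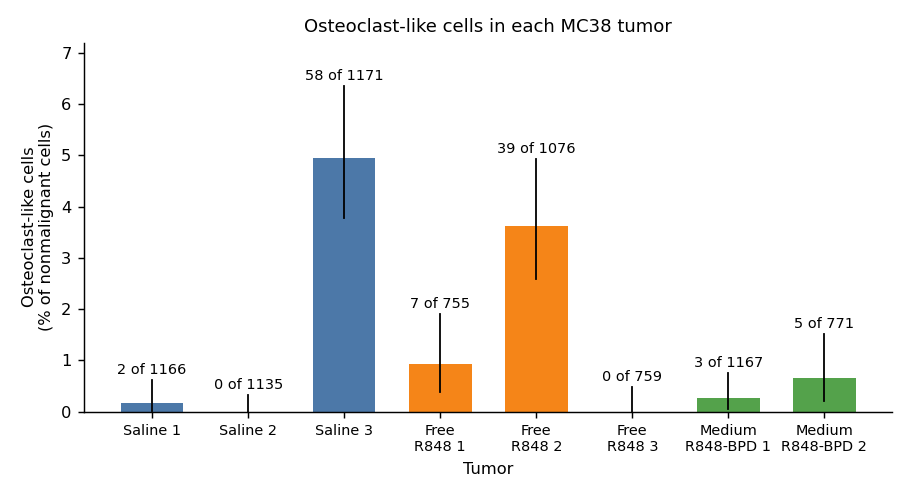
Osteoclast-like cells as a percentage of nonmalignant cells (y axis) in each of the 8 tumors (x axis), colored by treatment, with exact binomial 95% intervals as lines. Saline replicate 3 (4.95%) and free R848 replicate 2 (3.62%) stand above the other 6 tumors, which lie between 0 and 0.927%.

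Within saline and within free R848, the share differed more between tumors than the means of the treatments did. Saline tumors averaged 1.71% ± 2.81 (SD, n = 3). The mean of the free R848 tumors was 1.52% ± 1.88 (SD, n = 3), and that of the medium R848-BPD tumors 0.453% ± 0.277 (SD, n = 2). The ranges of the 3 groups overlapped. The difference was -1.06 points between medium R848-BPDs and free R848 (two-sided exact permutation test, p = 0.6), -1.26 points between medium R848-BPDs and saline (exact p = 1) and -0.191 points between free R848 and saline (exact p = 0.9). All 3 p-values were 1 after Benjamini-Hochberg adjustment over the pairs, and with so few tumors none could have fallen below 0.1. The sign of the differences from saline turned when single tumors were left out. Without saline replicate 3, free R848 exceeded saline by 1.43 points and medium R848-BPDs exceeded saline by 0.367 points. Free R848 also exceeded saline without free R848 replicate 1 (0.104 points) or replicate 3 (0.568 points). Counting only the cells with a UMI of Atp6v0d2, Ocstamp or Dcstamp, described below, the mean after medium R848-BPDs was 0.280% ± 0.154 (SD, n = 2).

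The genes of the rule were abundant in these cells, well above the limits of the rule. Ctsk encodes the collagen-cleaving protease cathepsin K, and a cell held a median of 290 Ctsk UMIs (range 2 to 1283), with 98 of 114 cells at 100 or more. Together, Ctsk, Acp5 and Mmp9 made up a median of 6.12% of a cell's UMIs. Summed over the cells of a tumor, Ctsk was at 31890.8 CPM in saline replicate 1, 34561 in saline replicate 3, 25528.7 in free R848 replicate 1, 33525.5 in free R848 replicate 2, 12653.5 in medium R848-BPD replicate 1 and 38766 in medium R848-BPD replicate 2. The lowest of these values came from a tumor with 3 such cells, 1 of which is described below as rich in collagen transcripts.

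Ctsk transcripts were also found in other cells, at levels that differed between tumors. Among C1q-positive macrophages, Ctsk was at 128 CPM in saline replicate 3 and at 0.869 CPM in saline replicate 2, where no osteoclast-like cell was found. A Ctsk UMI was found in 12.9% of macrophages of saline replicate 3 and in 0.602% of those of saline replicate 2. Among cells with a UMI of the natural killer cell gene Ncr1 and none of Cd3, which are not known to make cathepsin K, the share with a Ctsk UMI ran from 0 to 11.3% over the 8 tumors. In saline replicate 3 this share was 3.85%, at a median of 3817 UMIs per cell against 4323 for the macrophages. Nonmalignant cells that were neither osteoclast-like nor C1q-positive macrophages held Ctsk at 298 CPM in saline replicate 3, with up to 242 UMIs in 1 cell, at 193 CPM in medium R848-BPD replicate 2, where 15.7% of them had a Ctsk UMI, and at 7.34 to 73.9 CPM in the other 6 tumors. Whether these transcripts are background was not tested. Cells positive for MC38 genes, which the rule left out, held Ctsk at 419 CPM in saline replicate 3 and at 606 and 602 CPM in free R848 replicates 1 and 2, but at 15.8 CPM or less in the other 5 tumors.

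Cells near the limits of the rule lay mostly outside it. Just inside, 7 of the 114 cells met 1 or more of the 3 limits with no UMI to spare on that gene, and 4 of these held a UMI of Atp6v0d2. Just outside, 67 cells lacked only Mmp9, with a median of 3 Ctsk UMIs, 22 of them with an Atp6v0d2 UMI and 9 with at least 30 Ctsk UMIs, while 37 lacked only Ctsk and 7 lacked only Acp5. A further 12 cells met the 3 limits but held Cd3 or MC38 transcripts over the limit. They lay in saline replicate 3 (4 cells), free R848 replicate 1 (5 cells) and free R848 replicate 2 (3 cells). Of the 12 cells, 10 had at least 30 Ctsk UMIs and 10 had an Atp6v0d2 UMI.

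Most osteoclast-like cells held transcripts of other osteoclast genes that the rule did not read. Atp6v0d2 is the osteoclast-enriched d2 subunit of the proton pump, which also takes part in cell fusion. It had a UMI in 109 of 114 cells (95.6%) against 3.65% of C1q-positive macrophages of all 8 tumors. Ocstamp and Dcstamp encode membrane proteins required for osteoclast precursors to fuse, and had a UMI in 90.4% and 78.1% of osteoclast-like cells against 3.21% and 1.06% of macrophages. After thinning to 2000 UMIs the shares were 94.7% and 1.82% for Atp6v0d2, 54% and 1.32% for Ocstamp, and 52.2% and 0.566% for Dcstamp. Thinned macrophages of saline replicate 3 alone were higher for Atp6v0d2 (8.72%) and Dcstamp (2.35%) and lower for Ocstamp (0.671%). Osteoclast-like cells of that tumor were at 100%, 54.4% and 49.1% in the same order. Every cell with a Dcstamp UMI and every cell with an Ocstamp UMI also had one of Atp6v0d2, so that 109 cells carried at least 1 of the 3 genes.

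**Figure D2:**
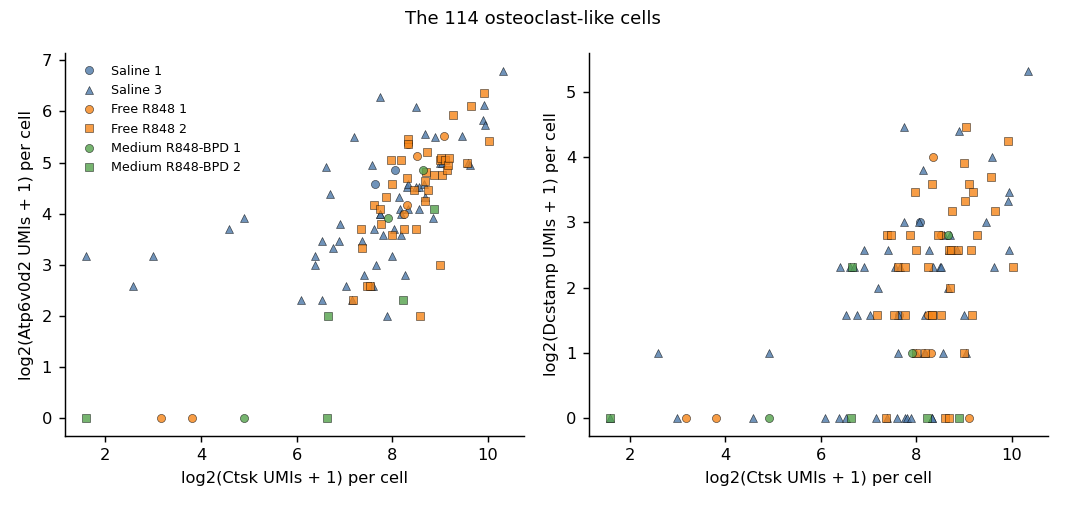
UMIs of Ctsk (x axis) against UMIs of Atp6v0d2 (left, y axis) and Dcstamp (right, y axis) in each of the 114 osteoclast-like cells, on a log2(UMIs + 1) scale, colored by treatment with 1 symbol per replicate. The 5 cells at 0 for Atp6v0d2 come from free R848 replicate 1 and the medium R848-BPD tumors, and each has under 100 Ctsk UMIs.

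The other 5 cells did not bear out the name. Of these, 3 carried UMIs of C1qa, C1qb and C1qc, including 1 that met the macrophage definition in full. A further 2 cells, both in free R848 replicate 2 and both with Atp6v0d2, also met it, and all 3 were counted as osteoclast-like only. Another, in medium R848-BPD replicate 1, had 594 UMIs of the collagen gene Col1a1, 29 of Ctsk and 2 of Acp5. The last had 98 Ctsk UMIs and 4 of Nfatc1 but none of the fusion genes. All 5 were in free R848 replicate 1 or in the medium R848-BPD tumors, so 44 of 46 cells after free R848, 5 of 8 after medium R848-BPDs and 60 of 60 after saline carried Atp6v0d2. The collagen-rich cell alone held 28999 of the 53029 UMIs of medium R848-BPD replicate 1, which lowers the summed levels of osteoclast genes there. Over the 2 remaining cells of that tumor, Ctsk was at 26716.6 CPM, Oscar and Car2 at 83.2 CPM each, Ocstamp at 291 CPM and Tnfrsf11a at 333 CPM.

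Transcripts of other lineages were otherwise rare. All 5 T cell markers, 3 of them fixed by the rule, and all 3 B cell markers (Cd79a, Cd79b, Ms4a1) were at 0 in osteoclast-like cells. All 6 fibroblast markers had a UMI, with summed levels from 0 to 58968 CPM over tumors, and the top of that range was the tumor with the collagen-rich cell. Neutrophil markers reached 440 CPM, dendritic cell markers 358 CPM, natural killer cell markers 68.2 CPM, endothelial markers 27.3 CPM and MC38 markers 999 CPM at most, and no more than 3 cells had 3 or more UMIs of any of these lists. Scrublet marked 2 of the 114 cells as doublets. The part of these other transcripts in the results below was not tested. None of the 5 cells without a fusion gene was in the 2 tumors of the comparison below.

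The comparison with C1q-positive macrophages asked what sets the cells apart beyond the genes that chose them. It was made on UMIs summed per tumor and kind of cell with edgeR's quasi-likelihood test, with the tumor as a block and the genes of both rules removed before the test. Only saline replicate 3 and free R848 replicate 2 had the 10 cells set as a minimum, so the fit held 4 sums and 1 residual degree of freedom, and its standard errors (SE) rest largely on the spread shared across genes. Of 8662 genes tested, 3032 (35.0%) differed at an adjusted p under 0.05, 1449 (16.7%) higher and 1583 (18.3%) lower in osteoclast-like cells. DESeq2 called 1427 (16.5%), and 1765 were called after each cell was thinned to 2000 UMIs. The median log2 fold change of all genes was -0.03. Counts within the lists below are to be read against these shares. Macrophages were defined by C1q genes, and genes that go with C1q may be lower in the other cells for that reason alone.

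The receptors of the osteoclast lineage moved in both directions. Oscar, a collagen-binding receptor that costimulates osteoclast formation, was at 118 CPM in osteoclast-like cells of saline replicate 3, 145 in free R848 replicate 2, 95.5 in free R848 replicate 1 and 37.7 in medium R848-BPD replicate 1, and was at 0 in saline replicate 1 and medium R848-BPD replicate 2. In C1q-positive macrophages of these 6 tumors it was at 0 throughout. Over the 2 tumors fitted, 131 UMIs against 0 put it at least 213-fold higher, with the floor of 3 counts over both tumors (adjusted p = 6.49e-06, edgeR's quasi-likelihood test).

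Tnfrsf11a, which encodes RANK, ranged from 151 to 342 CPM over the 6 tumors with osteoclast-like cells and from 104 to 152 in the macrophages. In saline replicate 3 it was at 342 against 104 CPM, and in free R848 replicate 2 at 323 against 152 CPM. The rise was 2.49-fold (log2 fold change 1.31 ± 0.22, SE, adjusted p = 0.00135). Its sum was higher in osteoclast-like cells of all 6 tumors. In medium R848-BPD replicates 1 and 2, cells with a fusion gene held only 8 and 4 UMIs of it, so these tumors add little. The call was lost in the 4 tumors with at least 5 cells when saline replicate 3 was left out. Of the 10 receptor and signaling genes tested, 3 rose (Tnfrsf11a, Oscar and Traf6, the adaptor that binds RANK) and 4 fell, among them Trem2 and Fcer1g, whose products take part in immunoreceptor signaling of both osteoclasts and macrophages.

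Ctsk, which chose the cells, and Oscar, which did not, are shown by the 250 bases before their RefSeq start sites, since their promoters belong to genes that were high together in these cells. Capitals mark matches to GAGGAAG, a core of sites for the myeloid factor PU.1, and to TCANGTG, a general E-box pattern with any base at N, on either strand. The coordinates are those of GRCm38.p6, on the plus strand at chr3:95498960-95499209 for Ctsk and on the minus strand at chr7:3616158-3616407 for Oscar.
Ctsk: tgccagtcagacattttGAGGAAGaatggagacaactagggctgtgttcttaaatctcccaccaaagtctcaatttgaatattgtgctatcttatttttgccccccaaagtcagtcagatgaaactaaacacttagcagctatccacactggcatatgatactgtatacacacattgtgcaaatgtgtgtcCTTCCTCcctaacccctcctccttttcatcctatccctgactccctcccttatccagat
Oscar: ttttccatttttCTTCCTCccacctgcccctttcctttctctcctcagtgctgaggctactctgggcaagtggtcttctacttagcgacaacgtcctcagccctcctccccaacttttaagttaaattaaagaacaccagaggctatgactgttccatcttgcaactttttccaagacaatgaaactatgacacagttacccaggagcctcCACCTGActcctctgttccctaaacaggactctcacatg
The PU.1 letters occurred at -233 and -59 from the Ctsk start and at -238 in Oscar, and the E-box letters at -39 in Oscar but not in Ctsk. Of all 32851 promoters of this length, 10.6% held the PU.1 letters, 12.2% the E-box letters and 6.75% the AP-1 letters TGANTCA, which neither promoter held. The NFAT core GGAAA was in 55.6% of promoters and matched 3 times in Oscar. The promoter of Tnfrsf11a, searched likewise, held none of these letters. The 3 promoters of Acp5 each held the NFAT core and none held the PU.1 letters, and the E-box letters occurred at -90 in an Acp5 promoter. A match describes the letters and is no evidence of binding.

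Transcription factors of the osteoclast program were mostly higher. Nfatc1 was at 1087 CPM in osteoclast-like cells of saline replicate 3 against 84.7 CPM in macrophages, and at 1126 against 56.8 CPM in free R848 replicate 2. In the other 4 tumors it ranged from 679 to 1678 CPM against 50.4 to 72.4 CPM, so the sum of osteoclast-like cells was the higher in each tumor. The lowest value was that of medium R848-BPD replicate 1, where the 2 cells with a fusion gene held 1498 CPM. The rise was 15.2-fold (log2 fold change 3.92 ± 0.23, adjusted p = 4.10e-06). A Nfatc1 UMI was found in 93% of osteoclast-like cells and 30.9% of macrophages, and in 79.6% and 11% after thinning.

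Of 16 transcription factors tested, 9 rose and 3 fell, with a median log2 fold change of 0.88 against -0.03 for all genes. Ppargc1b, a coactivator of mitochondrial biogenesis, rose 17.9-fold, Jdp2 12.4-fold, Prdm1 (BLIMP1, a repressor of anti-osteoclastogenic genes) 4.69-fold and Mitf 3.28-fold. Fos, Tfe3 and Hivep3 fell, though DESeq2 called only 1 of the 3. Of 5 tested genes that restrain osteoclast formation, 4 fell and none rose. Irf8, a transcription factor of the macrophage lineage, was at 34.7 against 347 CPM in saline replicate 3 and at 41.5 against 414 CPM in free R848 replicate 2 (10.5-fold lower), and Id2 and Id3 were 2.71-fold and 3.55-fold lower. Bcl6 did not pass the test (log2 fold change -1.55 ± 0.73, adjusted p = 0.132), though it did in the 4 tumors with at least 5 cells (adjusted p = 0.00329).

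**Figure D3:**
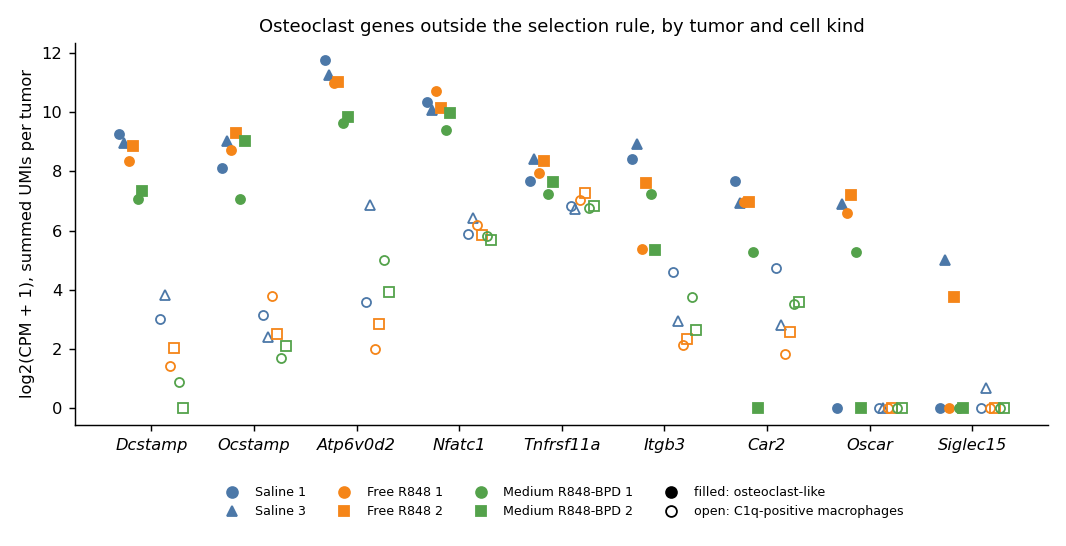
Levels of 9 osteoclast genes that the rule did not read (x axis), as log2(CPM + 1) of UMIs summed per tumor (y axis), in osteoclast-like cells (filled) and C1q-positive macrophages (open) of the 6 tumors with any osteoclast-like cell. Nfatc1 lies between 679 (a sum that includes the collagen-rich cell) and 1678 CPM in osteoclast-like cells and between 50.4 and 84.7 CPM in macrophages, while Tnfrsf11a lies closer together in the 2 kinds.

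Among cell fusion genes, 6 of 11 rose and 3 fell. Dcstamp was at 617 and 494 CPM in saline replicates 1 and 3, 327 and 462 in free R848 replicates 1 and 2, and 132 and 160 in medium R848-BPD replicates 1 and 2. The macrophages of the same tumors held 0 to 13.2 CPM, below the osteoclast-like cells of each tumor. Over the cells with a fusion gene alone, Dcstamp was at 291 and 239 CPM in medium R848-BPD replicates 1 and 2. In the fit Dcstamp rose 64.8-fold (log2 fold change 6.02 ± 0.36, adjusted p = 4.45e-06) and Ocstamp 121-fold (6.92 ± 0.25, adjusted p = 2.05e-06).

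Atp6v0d2 was at 3498 and 2482 CPM in saline replicates 1 and 3, 2060 and 2092 in free R848 replicates 1 and 2, and 792 and 919 in medium R848-BPD replicates 1 and 2. Over the cells with a fusion gene alone, the last 2 values were 1748 and 1374 CPM. Its level in macrophages was 115 CPM in saline replicate 3 and 2.95 to 31.2 CPM in the others, so the macrophage sum of saline replicate 3 stood apart for Atp6v0d2 as it did for Ctsk. The rise was 61.7-fold (5.95 ± 0.73, adjusted p = 0.000226). Myo10, an unconventional myosin of filopodia, rose 14.8-fold and Snx10, a sorting nexin needed for bone resorption, 9.3-fold. Cd47, its receptor Sirpa and the metalloprotease Adam8 fell, and Cd44 (log2 fold change -0.01) and Cd9 (0.67) did not pass the test. Cd9 passed in the 4 tumors with at least 5 cells (log2 fold change 1.10, adjusted p = 0.00115).

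The acid-secreting machinery was raised nearly as a whole. Of 22 proton pump and acid secretion genes tested, 19 rose and 1 fell, with a median log2 fold change of 1.75. Atp6v1b2, the brain-type B subunit that osteoclasts use, was at 2310 against 328 CPM in saline replicate 3 and at 2206 against 309 CPM in free R848 replicate 2 (6.75-fold, adjusted p = 1.23e-05). Tcirg1, the a3 subunit whose loss causes osteopetrosis, rose 3.56-fold, Clcn7, the chloride-proton exchanger of the ruffled border, 3.77-fold, and Slc4a2, a chloride-bicarbonate exchanger, 9.63-fold. Atp6v0a1, an alternative a subunit, fell from 123 CPM in macrophages to 7.72 CPM in saline replicate 3 and from 90.7 to 14.5 CPM in free R848 replicate 2 (log2 fold change -3.33 ± 0.35, adjusted p = 9.13e-05). Atp6v0d1, the widely expressed d subunit, did not pass the test (log2 fold change -0.06 ± 0.19, adjusted p = 0.845). In the 4 tumors with at least 5 cells, 17 of 22 rose and 1 fell.

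Car2, carbonic anhydrase II, which supplies the protons, was at 206 and 122 CPM in saline replicates 1 and 3, 123 and 124 in free R848 replicates 1 and 2, 37.7 in medium R848-BPD replicate 1 and 0 in replicate 2. Macrophages held 2.52 to 25.4 CPM. The 0 in the last tumor was out of 25022 UMIs, too few to set it below its macrophages. The rise in the fit was 21.3-fold (log2 fold change 4.41 ± 0.30, adjusted p = 8.06e-06). Car2 had a UMI in 43.9% of osteoclast-like cells.

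Of 13 tested matrix-degrading enzymes and their inhibitors other than the genes of the rule, 2 rose and 7 fell. Mmp14, a membrane-bound collagenase, rose 2.69-fold and the protease inhibitor Cst3 1.63-fold, the latter not past the test in the 4 tumors with at least 5 cells (adjusted p = 0.0563). Mmp12, macrophage elastase, was at 5.79 against 413 CPM in saline replicate 3 and at 2.07 against 207 CPM in free R848 replicate 2. Ctsc and Ctss, lysosomal cathepsins, were 23-fold and 5.69-fold lower, and Mmp13 had 2 UMIs in all against 395, a ratio of 40.5 with a counting interval of 11.1 to 335.

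The genes of the sealing zone were split. Itgb3, the integrin beta 3 chain, was at 343 and 483 CPM in saline replicates 1 and 3, 40.9 and 195 in free R848 replicates 1 and 2, and 151 and 40 in medium R848-BPD replicates 1 and 2. Macrophages held 3.37 to 23 CPM. The Itgb3 UMIs of the medium R848-BPD tumors were all in the collagen-rich cell (8 UMIs) and in the cell that met the macrophage definition (1 UMI), so the 5 cells with a fusion gene there had none. It rose 56-fold in the fit (log2 fold change 5.81 ± 0.26, adjusted p = 2.05e-06). Its partner Itgav rose 5.14-fold, the kinase Src 15.5-fold and the actin crosslinker Actn1 9.75-fold. In all, 7 of 15 rose and 3 fell (Ptk2b, Cbl and Spp1), of which DESeq2 and the 4 tumors with at least 5 cells each left 1.

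All 7 tested genes of the list of other osteoclast markers and coupling factors rose. Slc9b2, a sodium-hydrogen antiporter named for its rise in osteoclast formation, was at 712 against 12 CPM in saline replicate 3 and at 664 against 2.48 CPM in free R848 replicate 2 (106-fold). Ckb, the brain-type creatine kinase, rose 8.92-fold and Cd109 14-fold. Siglec15, a sialic acid-binding receptor of osteoclasts, had 22 UMIs over the 2 tumors against 1 in the macrophages, a ratio of 107 with a counting interval of 17.4 to 4433. Calcr, the calcitonin receptor, had 1 UMI in each of 4 cells, 3 of them in free R848 replicate 2, and was too low to test.

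**Figure D4:**
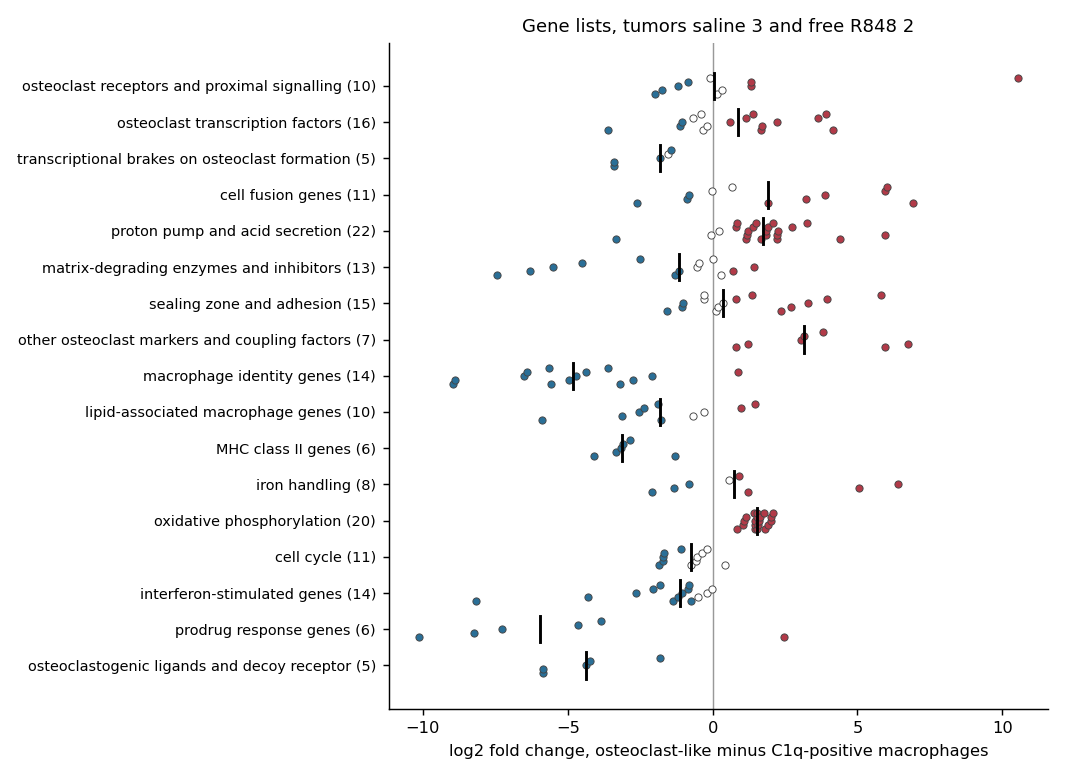
Log2 fold change of osteoclast-like cells against C1q-positive macrophages (x axis) for the tested genes of each list (y axis, number tested in brackets), from the fit of saline replicate 3 and free R848 replicate 2. Red and blue points are genes called higher and lower, open points were not called, and black bars are medians, for example 1.75 for the proton pump and -4.83 for macrophage identity. Values of genes at 0 in 1 kind of cell depend on the prior count.

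Nuclear genes of oxidative phosphorylation were raised together. All 20 tested rose, by a median of 1.54 on the log2 scale, and so did all 19 tested in the 4 tumors with at least 5 cells. Sdha, a subunit of succinate dehydrogenase, was at 639 against 154 CPM in saline replicate 3 and at 616 against 140 CPM in free R848 replicate 2. The smallest rise was that of Cox5a, 1.77-fold (adjusted p = 0.00819), and the largest that of Cyc1, cytochrome c1, 4.23-fold (adjusted p = 3.79e-05). Of 8 iron-handling genes, 4 rose and 3 fell. Tfrc, the transferrin receptor that takes up iron, was at 2320 against 57.1 CPM and at 1232 against 40.4 CPM (33.3-fold), and the ferritin chains Fth1 and Ftl1, which store it, were 2.5-fold and 1.77-fold lower.

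Macrophage identity genes were low. Of 14 tested, 13 fell and only Cd68, which osteoclasts also express, rose (1.82-fold). It did not pass the test in the 4 tumors with at least 5 cells (adjusted p = 0.313). Cx3cr1, the fractalkine receptor, had 1 UMI over both tumors against 2543 in macrophages, a ratio of 521 with a counting interval of 93.4 to 20582. Mrc1, the mannose receptor, likewise had 1 UMI against 2299. Lyz2, lysozyme, was at 160 against 9848 CPM in saline replicate 3 and at 22.8 against 3858 CPM in free R848 replicate 2. Apoe was 12.2-fold lower but still at 849 and 1103 CPM. Adgre1 was not analysed here.

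All 6 tested MHC class II genes, which present antigen to CD4 T cells, fell, 4 of them also with DESeq2. H2-Eb1 was at 135 against 575 CPM in saline replicate 3 and at 8.29 against 501 CPM in free R848 replicate 2, and H2-DMa was 17.1-fold lower. Of 14 interferon-stimulated genes, 11 fell and none rose, though DESeq2 called 6. Cxcl10, a T cell attractant, was 19.6-fold lower and Mx1 6.19-fold lower. All 5 tested genes of the ligand list fell, with Il1b at 100 against 3266 CPM and at 10.4 against 2148 CPM. Of 6 tested genes that responded to the prodrug in earlier results of these same samples, and so are no independent evidence, 1 rose (S100a4) and 5 fell, of which DESeq2 called 2. Of 10 lipid-associated macrophage genes, 2 rose (Lpl, 2.77-fold, and Cd63, 1.99-fold) and 6 fell.

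Cycling cells were present but not frequent. Mki67 was 3.62-fold lower in the fit, and 5 of 11 cell cycle genes fell and none rose, 3 of them also with DESeq2. At least 3 UMIs summed over 6 of these genes were found in 13 of 114 osteoclast-like cells (11.4%) and in 22.9% of macrophages. After thinning, at least 1 such UMI was found in 13.3% and 30.9%.

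Among the 12 genes with the largest fitted rise, whose order depends on the prior count where macrophages held 0 or 1 UMI, Rufy4, a protein of endolysosomal traffic, had 83 and 87 UMIs in the 2 tumors and none in their 810 macrophages (at least 277-fold higher). Scin, an actin-severing protein, and Mt3, a metallothionein, were also at 0 in the macrophages (at least 142-fold and 104-fold higher). Mst1r, the RON receptor tyrosine kinase, was at 212 and 207 CPM against 1 UMI in all, a ratio of 1025 with a counting interval of 182 to 40685. Myo1d, an unconventional myosin, rose 295-fold and Plekhf1, a phosphoinositide-binding endosomal protein, 168-fold. The others were Oscar, Akap6, Apbb1, Plekhg5, Slc45a3 and Nyap2.

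The 8 genes with the largest fitted fall were all at 0 UMIs in osteoclast-like cells of both tumors, so that their order depends on the prior count and their bounds lie below the ratios of Cx3cr1 and Mrc1. They were Rnase4 (1627 UMIs in macrophages, at least 111-fold lower), March1, which directs MHC class II to degradation (at least 42.1-fold lower), Cmklr1, the chemerin receptor (38.2-fold), Egr2 (36.6-fold), Saa3 (32.8-fold), Ch25h (32.4-fold), Lipg (23.3-fold) and Igf1 (18.5-fold). DESeq2 did not call these 8 genes, nor Scin and Mt3. The bounds count UMIs, and cells with Saa3 were few. After thinning, 0.336% of macrophages of saline replicate 3 and 4.85% of those of free R848 replicate 2 had a Saa3 UMI. Its 0 in the much smaller number of osteoclast-like cells therefore says little.

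Treatments could not be compared among osteoclast-like cells at the minimum of 10 cells, which left 1 saline and 1 free R848 tumor. At a minimum of 5 cells, saline replicate 3, free R848 replicates 1 and 2 and medium R848-BPD replicate 2 remained, with 1 residual degree of freedom between the 2 free R848 tumors, and the lone tumors were assumed to vary like these. Between free R848 and saline, 20 of 6386 genes (0.313%) passed, 7 higher and 13 lower. With 1 saline tumor, a difference between treatments and one between tumors cannot be told apart. The genes of both rules stayed in the tests within osteoclast-like cells, so the 20 genes include C1qb of the macrophage rule.

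Of the MHC class II genes, H2-Aa, H2-Ab1 and H2-Eb1 were lower after free R848. H2-Aa was at 96.5 CPM in saline replicate 3, 13.6 in free R848 replicate 1 and 6.22 in free R848 replicate 2, a log2 difference of -3.73 (adjusted p = 0.000117, edgeR's quasi-likelihood test). Its 50 UMIs in saline replicate 3 came from 5 of 58 cells, 31 of them from 1 cell. H2-Eb1 was at 135, 54.6 and 8.29 CPM in the same order, again from 5 cells of saline replicate 3, with 40 of 70 UMIs in 1 cell. H2-Ab1 had 113 of its 170 UMIs of saline replicate 3 in 1 cell and 57 in the others, against 16 and 27 UMIs in the smaller sums of the free R848 tumors, so that without that cell it was not lower in free R848 replicate 1.

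The chemokine Ccl22 was at 92.6, 0 and 8.29 CPM, with 41 of its 48 UMIs in saline replicate 3 in 1 cell. All 12 UMIs of the dendritic cell marker Ccr7 in that tumor were in 1 cell as well, against 0 and 2 UMIs in the free R848 tumors. All 33 UMIs of the small heat shock protein Hspb1 were in 3 cells of saline replicate 3. Itgb3 had a UMI in 29 of 58 cells of saline replicate 3, in 1 of 7 of free R848 replicate 1 and in 22 of 39 of free R848 replicate 2, and was lower at 40.9 and 195 CPM against 483 (log2 difference -1.74, adjusted p = 0.00034).

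Ly6a, an interferon-inducible surface protein, was at 23.2, 409 and 124 CPM (log2 difference 3.10, adjusted p = 7.06e-05), with a UMI in 5 of 58, 7 of 7 and 13 of 39 cells. Gbp2, a guanylate-binding protein, was at 25.1, 218 and 162 CPM (2.72, adjusted p = 0.000285), with a UMI in 7, 4 and 19 cells. C1qb of the macrophage rule rose as well, at 7.72, 164 and 35.2 CPM (2.88, adjusted p = 0.0387), with 12 UMIs in free R848 replicate 1, where 2 of the 7 cells carried no fusion gene. The part of these macrophage and dendritic cell transcripts in the other differences was not tested. Mki67 was called higher at 573 and 95.4 against 67.6 CPM (1.80, adjusted p = 0.0268), but 1 cell in each free R848 tumor held 38 of its 42 and 38 of its 46 UMIs. Leaving out the richest cell of each tumor, the other cells held 4 UMIs in free R848 replicate 1, 8 in free R848 replicate 2 and 18 in saline replicate 3.

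**Figure D5:**
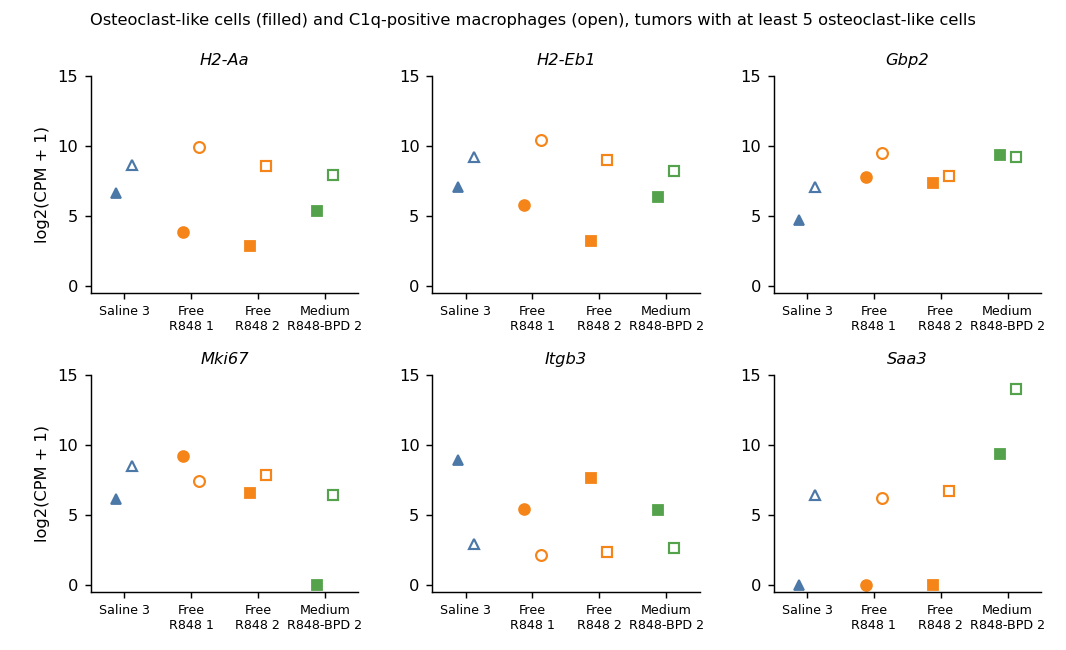
Levels of 6 genes as log2(CPM + 1) of summed UMIs (y axis) in osteoclast-like cells (filled) and C1q-positive macrophages (open) of the 4 tumors with at least 5 osteoclast-like cells (x axis). H2-Aa is at 96.5 CPM in osteoclast-like cells of saline replicate 3 and at 13.6 and 6.22 CPM in the free R848 tumors, and Saa3 is at 0 in osteoclast-like cells of these 3 tumors.

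The free R848 effect was also tested for a difference between the 2 kinds of cell. It differed for 31 of 8127 genes (0.381%), 13 of them in the lists. The largest of these with ample counts was Atp6v0d2, at 2482, 2060 and 2092 CPM in osteoclast-like cells and at 115, 2.95 and 6.21 CPM in macrophages of saline replicate 3 and free R848 replicates 1 and 2, so the difference lay in the macrophage sums. For medium R848-BPDs, 70 genes (0.861%) differed against saline and 82 (1.01%) against free R848.

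The medium R848-BPD tumor of this fit gave 5 cells, of which 3 carried Atp6v0d2, and 100 of 6386 genes (1.57%) differed from saline and 103 (1.61%) from free R848. These counts rest on 25022 UMIs. The genes of both rules stayed in these tests, and Mmp9, which chose the cells, is among those counted against saline. With 1 prodrug tumor, treatment and tumor cannot be told apart here either. The largest fitted changes from free R848 were those of Slpi, Saa3, Tardbp, Cpd and Map7d1, and from saline those of Slpi, Saa3, Irg1, C1qc and Cpd, each at 0 UMIs on one side, so that their order depends on the prior count. C1qc, a gene of the macrophage rule, had 9 UMIs in this tumor, all in the cell that met that rule. Saa3, an acute-phase protein, was at 8955 and 15983 CPM in C1q-positive macrophages of medium R848-BPD replicates 1 and 2, and at 1.56 to 105 CPM in those of the other 4 tumors with osteoclast-like cells. In osteoclast-like cells it was at 0 in all 60 cells after saline and all 46 after free R848. After medium R848-BPDs, 352 of its 370 UMIs were in the collagen-rich cell and 13 in the cell that met the macrophage definition. The 5 cells of these 2 tumors with a fusion gene held 5 UMIs of Saa3 in all, or 123 CPM (exact Poisson 95% interval 39.8 to 286, for counting error only), far below the macrophages of either tumor.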

How the data were processed

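The Seq-Well libraries held UMI counts per gene and cell barcode, deposited by the authors as raw counts for 8 tumors (10791 barcodes, 24787 genes). The submitters' processing notes name bcl2fastq and the mm10 build, and the aligner is not given in the sources used here. Depth ran from 5867590 to 12422614 UMIs per tumor.

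Cells with over 400 and under 10000 genes, under 50000 UMIs and at most 15% mitochondrial UMIs were kept. Groups came from the labels. The tumor was the replicate, and n in a test is the number of tumors. The members, lists and tests were chosen with earlier results of these data known. UMIs were summed per tumor and kind of cell, and sums with at least 10 cells were fitted by edgeR's quasi-likelihood test (edgeR 4.0.16, R 4.3.3) with Benjamini-Hochberg adjustment at 0.05, the tumor as a block, and the genes of both rules removed before the dispersion fit of this comparison. Because only 2 tumors had 10 cells, treatment tests used tumors with at least 5. Those within osteoclast-like cells kept the genes of both rules. Shares were compared by exact permutation tests (scipy 1.17.1). Intervals are exact 95% intervals, and a count of 0 was taken as 3 counts. Doublets were marked with Scrublet in scanpy 1.11.5 (100 cells, 1.01%) and kept in the main results.

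Genes were named by a rule: list genes, with at most 5 called per list in full beside the standard osteoclast markers, the 12 largest rises and 8 largest falls with a mean of at least 50 CPM in the higher kind and the same direction in both tumors, and the 5 largest treatment changes per pair. Some further list genes are given with values. Alternatives were DESeq2 1.42.0, another normalization, no low-count filter, no block, thinning, depth matching, stricter rules, doublets removed, and tumors left out. The fit was tested on simulated data of 8374 genes, where it recovered 70.6% of 194 changed genes (48.4% at 2-fold and 91.9% at 4-fold) with 4 false calls. The simulated tumors shared their means and took their spread from the fit, and far fewer genes changed than were called in the data. The 4 false calls therefore do not give the rate of false calls in these data. Promoter sequences and motif shares came from RefSeq (GRCm38.p6). Some list genes are counted in their lists but not reported here by name.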

Additional observations from a re-analysis of the deposited data

Results flagged for a closer look

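For 13 list genes the difference between free R848 and saline itself differed between osteoclast-like cells and C1q-positive macrophages (edgeR's quasi-likelihood test of the interaction, adjusted p under 0.05, tumors with at least 5 cells). Saline was 1 tumor, so treatment and tumor cannot be told apart, and values are log2 differences of the effects, osteoclast-like cells minus macrophages. Atp6v0d2 (4.15), Cd109 (3.03), Spp1 (2.86), S100a4 (1.78) and Cd9 (1.64) were positive, and each was higher in the macrophage sum of saline replicate 3 than in those of both free R848 tumors, as with Cd109 at 85.3 against 3.37 and 10.6 CPM and Spp1 at 4841 against 152 and 909 CPM. Mki67 (2.31) and Top2a (2.34) were positive, with Mki67 at 67.6 CPM in osteoclast-like cells of saline replicate 3 and at 573 and 95.4 CPM in those of free R848 replicates 1 and 2, where 1 cell each held 38 of 42 and 38 of 46 Mki67 UMIs. H2-Aa (-4.09), H2-Eb1 (-3.45) and H2-Ab1 (-2.23) were negative, with 31 of 50 H2-Aa, 40 of 70 H2-Eb1 and 113 of 170 H2-Ab1 UMIs of osteoclast-like cells of saline replicate 3 in 1 cell, as were Fcgr1 (-2.87) and Ckb (-1.86). Bcl6 (-8.50) rested on 12 UMIs in osteoclast-like cells of saline replicate 3 and none in those of free R848, so its size depends on the prior count.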

How the results depend on the processing

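The comparison with macrophages called 3032 genes, 1449 higher and 1583 lower. DESeq2 called 1427 (657 higher, 770 lower), all among the 3032, and after thinning to 2000 UMIs 1765 were called (781 higher, 984 lower), 1639 of them shared. With all 6 tumors, 938 were higher. Without a low-count filter 3408 were called and 42.3% of them were higher, against 47.8%. Leaving 1 tumor out of the 4 with at least 5 cells gave 1391 to 2960 calls, 507 to 1396 higher and 884 to 1564 lower, with the fewest (1391: 507 higher, 884 lower) without free R848 replicate 2 and 1835 (721 higher) without saline replicate 3. The fits with all 6 tumors, with tumors of at least 5 cells left out in turn, and, for calls and shares, with only cells that carry a fusion gene were added after seeing the data. The 12 largest rises, the 8 largest falls and the standard osteoclast markers tested, 27 genes, were followed over the alternatives. Of 418 alternative values, 353 kept their call, 54 carried no test, 11 lost the call and 0 changed direction. DESeq2 accounted for 10 of the 11, and tumors with at least 5 cells without saline replicate 3 for 1. Other genes named above, such as Cd68, Cst3, Bcl6 and Cd9, are outside this tally. For shares, leaving out 1 tumor moved free R848 minus saline between -1.24 and 1.43 points (0.104 without free R848 replicate 1, 0.568 without replicate 3, 1.43 without saline replicate 3), medium R848-BPDs minus saline between -2.11 and 0.367, and medium R848-BPDs minus free R848 between -1.82 and -0.0108.

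Correlations gave no sign that replicate numbers shared between treatments pair the tumors (-0.255 to 0.170 for same-numbered tumors, -0.292 to 0.425 for others). These values are few and partly mirror one another, so they cannot exclude a pairing. With the replicate number as a block, the share differed by -0.191 points between free R848 and saline (exact permutation p = 1), by 0.367 between medium R848-BPDs and saline (exact p = 0.5) and by -1.82 between medium R848-BPDs and free R848 (exact p = 0.5). The treatment tests could not be fitted at 10 cells per tumor, and the other settings were not tried on them. Leaving out a tumor from the main comparison leaves 1 tumor and no test. Depth limits low genes, such as Calcr and Siglec15, and the tumors with under 10 cells.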

Other observations

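RANK ligand (Tnfsf11) transcripts were found in 466 kept cells and in none of the 114 osteoclast-like cells. Of these cells, 237 had a UMI of the natural killer cell gene Ncr1 and none of Cd3, 135 (29.0%) had a Cd3 UMI, 25 were positive for MC38 genes and 14 were C1q-positive macrophages. A Tnfsf11 UMI was found in 79 cells of saline replicate 3 and 57 of free R848 replicate 2, where osteoclast-like cells were most frequent, and in 104 cells of saline replicate 1, where there were 2 of them. Saline replicate 2 had 44 such cells, free R848 replicates 1 and 3 had 53 and 27, and medium R848-BPD replicates 1 and 2 had 88 and 14. The tumors held 892 to 1443 kept cells each.

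Csf1, which encodes macrophage colony-stimulating factor, was higher in MC38 gene-positive cells than in C1q-positive macrophages of all 8 tumors. It was at 134 to 306 CPM in the former and at 3.84 to 95.5 CPM in the latter.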
